A study of Mus musculus with 24 samples.

Results

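The transcription factor NRF2, its inhibitor KEAP1 and the enzymes that remove oxidants were followed through the circadian day in mouse liver. The genes were chosen by name: *Nfe2l2* (encoding NRF2), *Keap1*, *Nqo1*, *Srxn1*, *Txnrd1*, *Gclc*, *Gclm*, *Gsr*, *Cat* and *Sod2*, 10 of the 54733 genes in the tables. All 10 had a mean of at least 1 FPKM (fragments scaled to the length of the transcript and to the mapped fragments of the library) and were among the 11244 genes tested. Poly(A) RNA was sequenced from livers of male C57BL/6 mice that were kept in constant darkness, at the projected circadian times CT2, CT6, CT10, CT14, CT18 and CT22. There were 12 WT libraries and 12 libraries of ΔRRE homozygotes, which lack both RREs (binding elements of the REV-ERB and ROR nuclear receptors) of the clock gene *Bmal1*, with 2 libraries for each genotype and time. Both groups were otherwise untreated, tissues were taken from mice of 8 to 24 weeks, and the ΔRRE mice came from 1 mutant line. The comparisons asked whether the antioxidant genes followed a daily rhythm in liver, and whether their level or rhythm differed once *Bmal1* had lost its RREs.

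Under basal conditions KEAP1 holds NRF2 in the cytoplasm and directs it to degradation through a CUL3 ubiquitin ligase. Oxidants and electrophiles modify cysteines of KEAP1, and NRF2 then accumulates, pairs with small MAF proteins in the nucleus and binds antioxidant response elements near genes of glutathione synthesis, thioredoxin reduction and quinone detoxification. Because this control acts largely on the NRF2 protein, the mRNA of *Nfe2l2* is not a measure of NRF2 activity. In liver, glutathione made by hepatocytes serves the detoxification of drugs and of oxidants formed in metabolism.

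A core of the element that NRF2 binds was searched for, and is shown for the genes in which it was found near a start site. RefSeq windows (GRCm38.p6) from 250 bases before to 50 bases after a transcription start were at hand for 8 of the 10 genes, as 10 windows, and *Gclc* and *Gsr* had none. The core TGACNNNGC, searched on both strands, occurred in 4 of these 10 windows and in 12.4% of all 32851 windows of the same length. The stretches below run 5′ to 3′ on the strand of the gene, with the core or its reverse complement in capitals.
Nfe2l2: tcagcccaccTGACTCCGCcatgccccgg
Gclm: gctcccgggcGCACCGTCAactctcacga
Txnrd1: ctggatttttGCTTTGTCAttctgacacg
Srxn1: GCTAGGTCA
The *Nfe2l2* stretch (chr2:75704885-75704913, minus strand) has the first base of its core at -240 relative to the start, and the *Gclm* stretch (chr3:122245413-122245441, plus strand) has it at -134. In *Txnrd1* (chr10:82859104-82859132, plus strand) the core begins at -92 relative to a start site inside the gene. The *Srxn1* core (chr2:152105552-152105560, plus strand) lies 28 bases after the start, so that only its 9 bases are given. *Srxn1* was also the member with AP-1 type sites, TGAGTCA on either strand, which are shown because elements of NRF2 and AP-1 can share these letters. It held the sequence at 2 places, neither of which overlapped its core.
Srxn1 distal: tcggagggccTGAGTCAccacgctgtg
Srxn1 proximal: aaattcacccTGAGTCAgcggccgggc
They span chr2:152105412-152105438 and chr2:152105469-152105495 on the plus strand and their capitals begin at -102 and -45. With the bases after its capitals, the proximal site reads TGAGTCAGC, the searched core with G in place of C. Cores with this G were not searched for, and which site NRF2 binds in *Srxn1* was not tested. This sequence occurred in 1 of the 10 windows and in 5.2% of all windows. The E-box CACGTG, bound by CLOCK and BMAL1, occurred in 0 of the 10 windows and in 7.15% of all windows. A match of letters is a description of the window and no measure of binding.

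The totals of the libraries lay between 554170 and 624746 FPKM, and the number of reads behind each value is unknown. Across genes, replicate libraries had a Pearson's r from 0.955 to 0.974. *Bmal1*, listed as Arntl, averaged from 0.143 FPKM at CT10 to 12.9 FPKM at CT2 in WT and from 2.3 to 3.61 FPKM over the time points in ΔRRE livers, which matches the labels. The 6 hepatocyte markers summed to between 32800 and 50100 FPKM in every library. Some libraries stood apart by markers of other cells, of liver zones or of inflammation, ΔRRE CT10 replicate 1 and CT14 replicate 1 most of all. In WT, the sum of 6 Kupffer cell markers ran from 13 FPKM in CT22 replicate 1 to 94.9 FPKM in CT6 replicate 1. In ΔRRE it ran from 26.8 to 64.3 FPKM. The summed level of 5 erythroid markers ran from 466 to 1540 FPKM in WT and from 537 to 4450 FPKM in ΔRRE. Above the WT range were ΔRRE CT22 replicate 2 (1560 FPKM) and CT18 replicate 1 (2060 FPKM). The highest sums were those of ΔRRE CT10 replicate 1 (4320 FPKM) and CT14 replicate 1 (4450 FPKM). The summed level of 10 acute-phase genes ran from 4700 to 9290 FPKM in WT and from 5020 to 17900 FPKM in ΔRRE, with 15200 and 17900 FPKM in the same pair. It was also above the WT range in ΔRRE CT10 replicate 2 (10900 FPKM), CT6 replicate 1 (9620) and CT22 replicate 1 (9550). The 5 periportal hepatocyte markers summed to at most 1990 FPKM in WT and to 3270 and 2660 FPKM in the ΔRRE libraries of CT10. In ΔRRE CT14 replicate 1 they summed to 2480 FPKM. The leukocyte markers were also highest there, at 13.1 FPKM against at most 8.56 FPKM in WT. Over the time points, 4 of the 5 periportal markers were higher in ΔRRE and 1, *Cyp2f2*, was lower, with 0 called at an adjusted p. The sum of 6 pericentral hepatocyte markers was highest in ΔRRE CT10 replicate 2, at 5390 FPKM against at most 5190 FPKM in WT. No difference of zone is read from these sums. No marker of these lists was at 0 in all 24 libraries. Results are given below also without the pair of highest erythroid and acute-phase levels, ΔRRE CT10 replicate 1 and CT14 replicate 1, which left 2 of the 4 calls of a rhythm over both genotypes. In bulk liver, fewer cells of a type and less RNA per cell cannot be told apart.

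Per length of transcript, catalase was by far the most abundant of these mRNAs, and *Nqo1* the least. *Cat*, encoding the peroxisomal enzyme that breaks down hydrogen peroxide, had a mean level of 1050 ± 125 FPKM (SD, n = 24). *Gclc* followed at 86.9 ± 29.2 FPKM and was above the next gene in all 24 libraries. Then came a group of genes with similar levels, *Txnrd1* at 38.8, *Gclm* at 35, *Sod2* at 33.2 and *Gsr* at 27.7 FPKM. *Txnrd1* exceeded *Gclm* in 12 of 24 libraries and *Gclm* exceeded *Sod2* in 16, so that these neighbours did not differ beyond their spread. *Sod2* exceeded *Gsr* in 20, with a mean log2 ratio of 0.27 ± 0.3 (SD, n = 24). *Nfe2l2* had 22.9 ± 3.65 FPKM, below *Gsr* in 22 of 24 libraries and above *Keap1*, at 13.6 ± 1.49 FPKM, in all 24. *Keap1* and *Srxn1* (12 ± 3.16 FPKM) overlapped, and *Nqo1* was lowest at 4.35 ± 1.68 FPKM.

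The rhythm was examined by fitting a wave with a period of 24 h to log2(FPKM + 0.1), whose amplitude is the log2 distance from its mean to its peak. Over both genotypes together, *Gclc*, *Srxn1*, *Gsr* and *Cat* followed such a wave, 4 of the 10 genes, where 18.7% of all genes tested did (adjusted p under 0.05 in limma's test). All 4 had their fitted peak early in the subjective day, between CT1.2 and CT3.6, and their lowest mean over both genotypes at CT14. The share of all called genes with such a peak is not given here, so no phase particular to these genes is read. They are an enzyme each of glutathione synthesis, peroxiredoxin repair, glutathione recycling and peroxide breakdown.

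**Figure D1:**
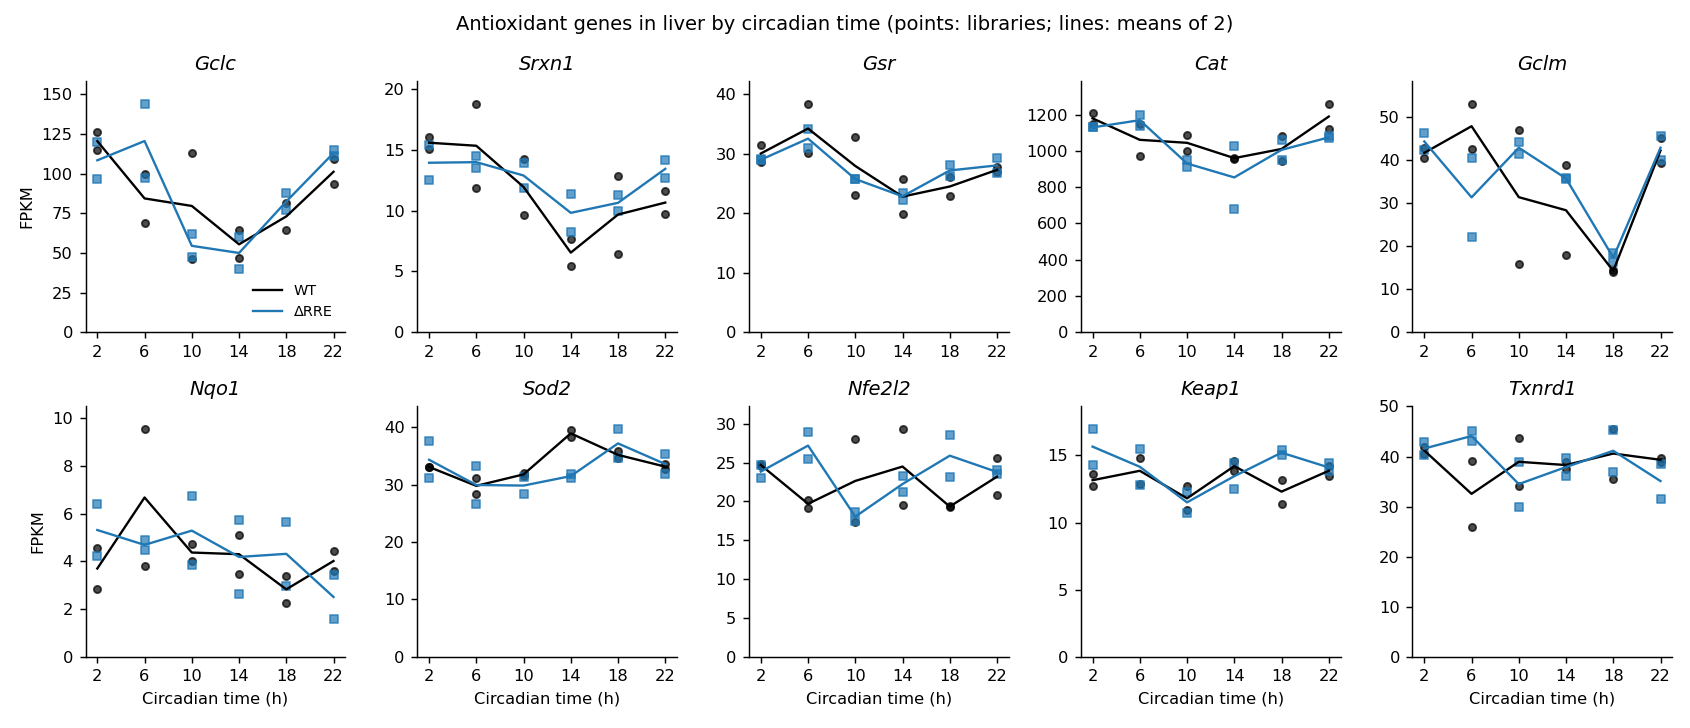
Level in FPKM (vertical axes, from 0) of the 10 genes against circadian time in h, with 1 point for each library and lines through the means of 2 libraries in WT (black circles) and ΔRRE (blue squares). *Gclc*, *Srxn1*, *Gsr* and *Cat* had their lowest means at CT14 in both genotypes, and *Gclm* at CT18.

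*Gclc* encodes the catalytic subunit of glutamate-cysteine ligase, the rate-limiting enzyme of glutathione synthesis (ENSMUSG00000032350, chromosome 9 of GRCm38, 77754535 to 77794485). The WT libraries had 126 and 115 FPKM at CT2, 69.0 and 99.7 at CT6, 113 and 46.2 at CT10, 64.3 and 46.5 at CT14, 64.3 and 81.7 at CT18, and 109 and 93.3 at CT22. In ΔRRE they had 96.8 and 120 FPKM at CT2, 144 and 97.1 at CT6, 61.6 and 47.3 at CT10, 39.9 and 60 at CT14, 77.1 and 87.7 at CT18, and 115 and 111 at CT22. All 8 libraries of CT22 and CT2 were above all 4 of CT14, without overlap, whereas the pair of WT libraries at CT10 lay far apart. The wave shared by both genotypes had an amplitude of 0.58 ± 0.09 (SE), a 2.24-fold change from trough to peak, with its peak at CT1.2 ± 0.6 h (adjusted p = 0.00277 in limma's test). The call held in each of the 24 fits without 1 library, and also without both ΔRRE CT10 replicate 1 and CT14 replicate 1 (adjusted p = 0.0169 in limma's test). It was lost without the 4 libraries of CT14 (adjusted p = 0.0734 in limma's test).

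*Srxn1* encodes sulfiredoxin, which reduces overoxidized peroxiredoxins (ENSMUSG00000032802, chromosome 2, 152105516 to 152111376). Its WT values were 16.1 and 15.1 FPKM at CT2, 18.8 and 11.9 at CT6, 14.3 and 9.62 at CT10, 5.43 and 7.67 at CT14, 6.47 and 12.9 at CT18, and 9.74 and 11.6 at CT22. Its ΔRRE values were 12.5 and 15.4 FPKM at CT2, 13.5 and 14.5 at CT6, 11.9 and 13.9 at CT10, 11.4 and 8.25 at CT14, 11.3 and 10.0 at CT18, and 12.7 and 14.2 at CT22. Both WT libraries of CT14 were below all ΔRRE libraries, and the 4 libraries of CT2 were above the 4 of CT14. The shared wave had an amplitude of 0.42 ± 0.08 (SE), a 1.78-fold change, and peaked at CT3.6 ± 0.8 h (adjusted p = 0.0077 in limma's test). The fitted amplitude was 0.57 in WT and 0.26 in ΔRRE, yet a difference of the waves did not pass (exact permutation p = 0.26, two-sided, with every one of the 23328 ways to split the libraries evenly at each time). The call over both genotypes held without each library in turn and was lost without CT2 (adjusted p = 0.0599 in limma's test) or CT14 (0.132).

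*Gsr* encodes glutathione reductase, which returns oxidized glutathione to its reduced form with NADPH (ENSMUSG00000031584, chromosome 8, 33652523 to 33698163). In WT it measured 31.4 and 28.7 FPKM at CT2, 38.4 and 30.1 at CT6, 32.9 and 23.0 at CT10, 25.7 and 19.9 at CT14, 22.9 and 26.1 at CT18, and 26.9 and 27.7 at CT22. The ΔRRE livers had 28.9 and 29.1 FPKM at CT2, 34.1 and 31.0 at CT6, 25.8 and 25.7 at CT10, 22.3 and 23.4 at CT14, 26.3 and 28.1 at CT18, and 26.8 and 29.3 at CT22. The 4 libraries of CT6 were above all 4 of CT14, and the genotypes overlapped at every time but CT18. Its shared wave was small, with an amplitude of 0.22 ± 0.05 (SE), a 1.35-fold change and a peak at CT3.6 ± 0.8 h (adjusted p = 0.0231 in limma's test). Without WT CT6 replicate 1, the library with the highest value, the adjusted p in limma's test was 0.0522, and without that pair of ΔRRE libraries it was 0.0563.

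*Cat* lies on chromosome 2 (ENSMUSG00000027187, 103453849 to 103485160). Its WT levels were 1210 and 1150 FPKM at CT2, 973 and 1150 at CT6, 1090 and 1000 at CT10, 963 and 958 at CT14, 1080 and 942 at CT18, and 1260 and 1120 at CT22. Its ΔRRE levels were 1130 and 1130 FPKM at CT2, 1140 and 1200 at CT6, 948 and 914 at CT10, 678 and 1030 at CT14, 1060 and 952 at CT18, and 1080 and 1070 at CT22. The lowest value belongs to ΔRRE CT14 replicate 1, one of the libraries that stood apart, and all others lay between 914 and 1260 FPKM. The shared wave had an amplitude of 0.18 ± 0.04 (SE), a 1.28-fold change, and a peak at CT1.7 ± 0.9 h, and its call was close to the threshold (adjusted p = 0.0429 in limma's test). Without ΔRRE CT14 replicate 1 the adjusted p in limma's test was 0.0826 and without that pair of ΔRRE libraries 0.109, and the call was lost in 19 of the 24 fits without 1 library.

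**Figure D2:**
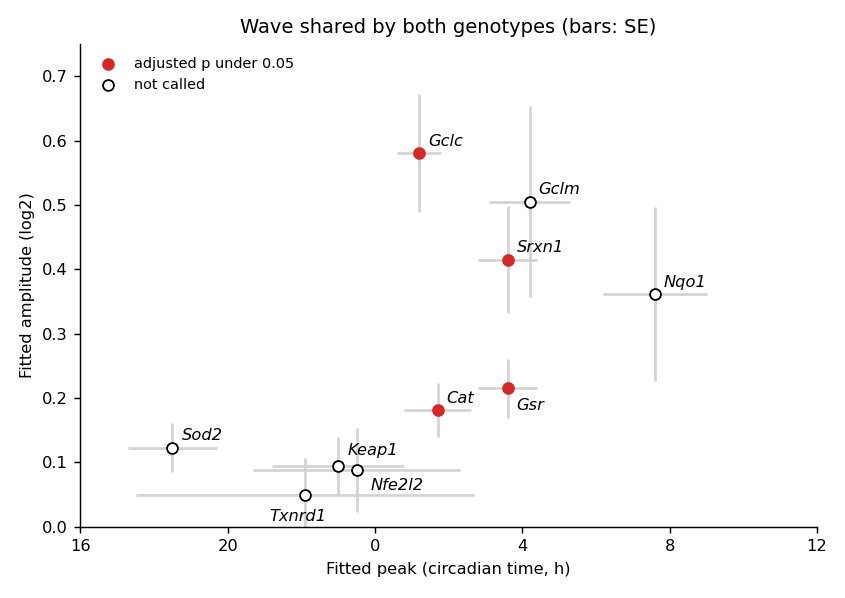
Fitted amplitude (log2, vertical axis) against fitted peak (circadian time in h, horizontal axis) of the wave shared by both genotypes, with bars of 1 SE and filled red points for adjusted p under 0.05 in limma's test. The 4 called genes peaked between CT1.2 and CT3.6, and *Gclm* and *Nqo1* had amplitudes of 0.51 and 0.36 with wider errors.

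*Gclm*, the modifier subunit that raises the catalytic efficiency of GCLC (ENSMUSG00000028124, chromosome 3, 122245557 to 122270732), had its lowest mean at CT18. In WT it had 42.9 and 40.5 FPKM at CT2, 53.1 and 42.7 at CT6, 47.0 and 15.8 at CT10, 38.8 and 17.9 at CT14, 14.1 and 14.4 at CT18, and 45.2 and 39.3 at CT22. The ΔRRE values were 46.3 and 42.4 FPKM at CT2, 40.5 and 22.2 at CT6, 44.3 and 41.5 at CT10, 35.9 and 35.6 at CT14, 18.3 and 16.4 at CT18, and 40.1 and 45.7 at CT22. All 4 libraries of CT18 lay between 14.1 and 18.3 FPKM, and the 8 libraries of CT22 and CT2 between 39.3 and 46.3 FPKM. Among the other times only WT CT10 replicate 2, WT CT14 replicate 2 and ΔRRE CT6 replicate 2 were below 35 FPKM. A 24 h wave described this poorly (amplitude 0.51 ± 0.15 (SE), adjusted p = 0.107 in limma's test), while with the time point as a factor, which allows any shape, *Gclm* was the 1 gene of the 10 to pass (adjusted p = 0.0442 in limma's test), where 9.67% of all genes did. *Gclm* overlaps Gm17494 on the other strand and the pseudogene Gm6061 on its own. Reads from Gm6061 may have been assigned to it. The libraries were made with a directional kit, and whether the strand was used to keep reads of Gm17494 apart is unknown here.

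**Figure D3:**
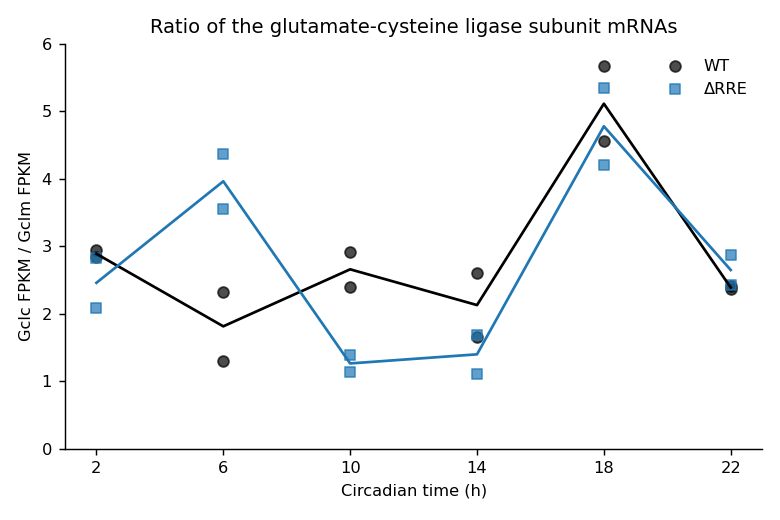
Ratio of the FPKM of *Gclc* to that of *Gclm* (vertical axis, from 0) against circadian time in h, with 1 point for each library and lines through the means of 2 in WT (black circles) and ΔRRE (blue squares). At CT18 the ratio lay between 4.21 and 5.67 in all 4 libraries.

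Per length, the ratio of *Gclc* to *Gclm* mRNA was 4.95 ± 0.678 (SD, n = 4) at CT18 over both genotypes. At CT14, the time point before, it was 1.77 ± 0.617 (SD, n = 4), and at CT22, the time point after, 2.52 ± 0.235 (SD, n = 4). The highest ratio outside CT18 was 4.37 in ΔRRE CT6 replicate 2, which is above the 4.21 of ΔRRE CT18 replicate 1. The ratio was examined after its values were seen and was not tested.

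*Nqo1* encodes the quinone reductase that is a common readout of NRF2 activity (ENSMUSG00000003849, chromosome 8, 107388225 to 107403206). Its WT libraries ran from 2.25 FPKM over a median of 3.9 to 9.58 FPKM, with the highest value in CT6 replicate 1, where the other replicate had 3.79. The ΔRRE libraries ran from 1.6 FPKM over a median of 4.35 to 6.75 FPKM. Replicate 1 was above replicate 2 at every time in WT, by 0.24 to 1.32 on the log2 scale, and in ΔRRE at every time but CT6 and CT22. What the replicate number stands for is unknown. The amplitudes of 0.36 in WT and 0.37 in ΔRRE stood against this spread between replicates. The shared wave did not pass (adjusted p = 0.359 in limma's test), nor did it with a replicate block (0.234).

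*Nfe2l2* itself (ENSMUSG00000015839, chromosome 2, 75675513 to 75704641), *Keap1* (ENSMUSG00000003308, chromosome 9, 21229730 to 21239361) and *Txnrd1*, the cytosolic thioredoxin reductase (ENSMUSG00000020250, chromosome 10, 82833951 to 82897712), showed no wave that passed. *Nfe2l2* had from 17.3 over a median of 20.5 to 29.4 FPKM in WT and from 17.5 over 23.4 to 28.9 FPKM in ΔRRE (adjusted p = 0.768 in limma's test). Its amplitude was 0.03 in WT and 0.15 in ΔRRE. At CT6 the WT libraries of *Nfe2l2* had 20.2 and 19.2 FPKM and the ΔRRE libraries 28.9 and 25.5 FPKM. At CT18 they had 19.3 and 19.4 against 28.6 and 23.2 FPKM, also without overlap. Over the 6 time points *Nfe2l2* was higher in ΔRRE at 3 and lower at 3, and differences at single times were not tested. With 2 libraries each, such gaps also occurred in other genes. For *Keap1* the libraries had 12.7 and 13.6 against 14.3 and 17.0 FPKM at CT2. At CT18 those of *Keap1* had 11.4 and 13.2 against 15.0 and 15.4 FPKM. No effect of genotype at a single time is read from these gaps. *Keap1* had 10.9 to 14.8 FPKM in WT and 10.7 to 17 FPKM in ΔRRE (adjusted p = 0.401 in limma's test). *Txnrd1* lay between 25.9 and 45.6 FPKM over all libraries (adjusted p = 0.775 in limma's test). These 3 genes thus gave shared amplitudes of 0.09, 0.10 and 0.05, below those of the 4 genes that passed. *Keap1* is overlapped by the antisense gene Gm16754, and *Txnrd1* by Eid3 on its own strand and by Gm38560 and Gm47073 on the other.

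*Sod2*, the mitochondrial manganese superoxide dismutase (ENSMUSG00000006818, chromosome 17, 13006846 to 13040063), had its fitted peak on the other side of the day, at CT18.5 ± 1.2 h. At CT14 the WT libraries had 39.5 and 38.4 FPKM and the ΔRRE libraries 31.1 and 31.9 FPKM, which do not overlap. At CT18 the genotypes had 35.8 and 34.6 against 39.8 and 34.6 FPKM, and neither time was tested alone. Its shared amplitude of 0.12 ± 0.04 (SE) did not pass (adjusted p = 0.0879 in limma's test). The fitted peak was CT16.6 in WT and CT20.4 in ΔRRE, and the waves of the genotypes did not stand apart (exact permutation p = 0.161, two-sided).

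Fitted in each genotype alone, 1 of the 10 genes passed in WT, *Srxn1* (adjusted p = 0.0433 in limma's test), where 10.3% of all genes did. This call was lost in at least 8 of the 12 fits without 1 WT library. It was also lost without a filter, with a prior without trend and when time points were fitted as a factor. In ΔRRE it was *Gclc* (adjusted p = 0.0191 in limma's test), 1 of the 10, where 4.57% of all genes did. *Gclc* had an adjusted p of 0.0686 in WT and *Srxn1* one of 0.116 in ΔRRE in limma's test, so that both calls turn on values near the threshold. The call of *Gclc* in ΔRRE was lost without CT14 replicate 1. By the looser criteria of the study's methods, with the harmonic p under 0.3 in place of the P of BIO_CYCLE, 5 genes were rhythmic in WT (*Nqo1*, *Gclc*, *Gclm*, *Srxn1* and *Gsr*), where 37% of all genes were. In ΔRRE 4 genes were (*Nfe2l2*, *Nqo1*, *Gclc* and *Gclm*), where 35.4% of all genes were. A difference in the wave itself was called for 0 of the 10 genes (0.00889% of all genes) in limma's test, and 0 had an unadjusted p under 0.05 (2.84% of all genes). The two-sided exact permutation p of this difference lay between 0.161 (*Sod2*) and 0.953 (*Nqo1*), where the design allows 4.29e-05.

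The level over the 6 time points differed between ΔRRE and WT for 0 of the 10 genes (adjusted p under 0.05 in limma's test), as for 0% of all genes. At an unadjusted p under 0.05, 0 of the 10 genes were higher in ΔRRE, where 7.16% of all genes were, and 0 were lower, where 1.75% were. These shares depend on the scale of the libraries, and after rescaling by the median of ratios they were 3.89% and 3.16%. The largest difference was that of *Srxn1*, with a log2 difference of 0.16 ± 0.12 (SE), and the smallest two-sided exact permutation p was 0.146 (*Keap1*). Sizes that the data still allow can be read from the 95% intervals of the ratio of ΔRRE to WT. They ran from 0.922 to 1.21 for *Nfe2l2*, from 0.973 to 1.15 for *Keap1*, from 0.915 to 1.09 for *Gsr*, from 0.87 to 1.04 for *Cat* and from 0.899 to 1.05 for *Sod2*. For *Txnrd1* the interval was 0.901 to 1.15, for *Gclc* 0.835 to 1.23, for *Srxn1* 0.945 to 1.33, for *Gclm* 0.863 to 1.4 and for *Nqo1* 0.754 to 1.35. The log2 difference was above 0 for 7 genes, 0 to 3 decimals for *Gsr*, and below 0 for *Cat* and *Sod2*, with a median of 0.02, beside a median of 0.04 and 65.3% above 0 over all genes tested. After rescaling it was above 0 for 4 genes and below 0 for 6 (*Nqo1*, *Gclc*, *Txnrd1*, *Gsr*, *Cat* and *Sod2*), with 49.2% above 0 over all genes, so that no direction of these genes is read from the signs. Beside these values, 4 of the 5 erythroid markers and 5 of the 10 acute-phase genes were higher in ΔRRE at an unadjusted p under 0.05 and none at an adjusted p. Without ΔRRE CT10 replicate 1 and CT14 replicate 1 the log2 difference of *Nqo1* was -0.11 and those of *Cat* and *Sod2* were -0.02 and -0.01.

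**Figure D4:**
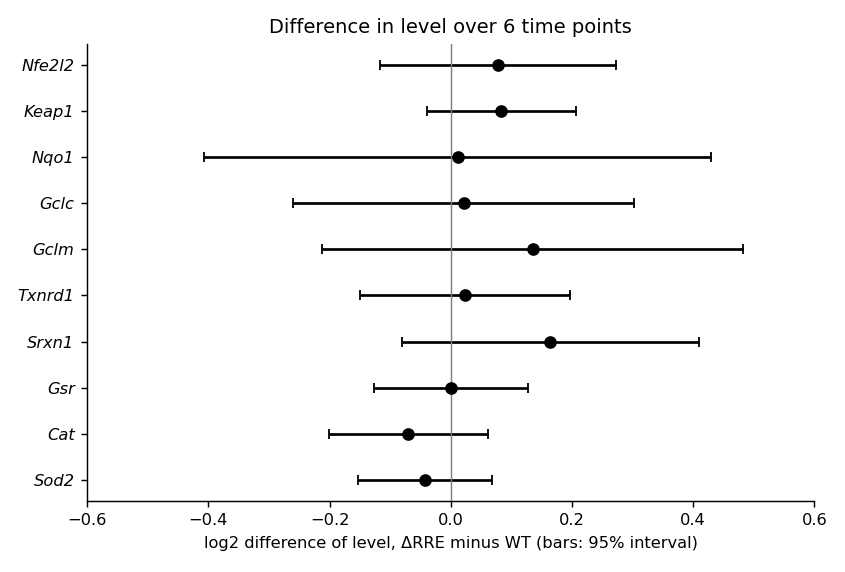
Log2 difference in level between ΔRRE and WT over the 6 time points (horizontal axis) for each of the 10 genes (vertical axis), as points with bars of the 95% interval from limma. Every interval includes 0, and that of *Nqo1* is the widest, from -0.41 to 0.43.

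The other genes of the pathway were taken from 6 lists, of whose 69 genes 65 were tested. Of these, 11 followed a wave over both genotypes at an adjusted p under 0.05, where 18.7% of all genes did. Among 12 regulators and partners of NRF2, 3 did: *Sqstm1*, encoding the autophagy receptor p62 that competes with NRF2 for KEAP1, and *Mafk* and *Maff*, encoding small MAF partners. *Sqstm1* peaked at CT2.8 in WT and CT2.7 in ΔRRE (adjusted p = 0.00024 in limma's test). *Mafk* peaked at CT6.3 and CT7.5 and *Maff* at CT9.1 and CT10.3 (adjusted p = 0.00564 and 0.0117 in limma's test).

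Of 20 other NRF2 target genes tested, *Cyp2a5*, *Gstm4* and *Gstm2* followed a wave. *Gstm4*, a glutathione S-transferase, peaked at CT4.5 in WT and CT3.8 in ΔRRE (adjusted p = 5.77e-05 in limma's test), and its level over the 24 libraries was among the 3 most like that of *Gsr*. *Gstm2* had an adjusted p of 0.0473 in limma's test, with its peak at CT4.8 in WT and CT8.4 in ΔRRE. *Cyp2a5*, a cytochrome P450 that hydroxylates coumarin and nicotine, peaked in the opposite part of the day, at CT13 and CT13.6 (adjusted p = 1.14e-05 in limma's test). The Gstm genes and *Cyp2a5* have near-identical paralogs among which reads may have been split, so that their levels are uncertain.

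Of the 6 genes of NADPH supply, *Me1* (malic enzyme) and *Pgd* (6-phosphogluconate dehydrogenase) passed, with adjusted p of 0.0342 and 0.0499 in limma's test. Their peaks were at CT3.1 and CT0.9 in WT and at CT23.4 and CT21.2 in ΔRRE, and the test of a difference between these waves gave unadjusted p of 0.0808 and 0.15 in limma. Of 11 genes of glutathione synthesis and use, *Gss*, the synthetase that follows glutamate-cysteine ligase, and *Glrx5*, a mitochondrial glutaredoxin, passed (adjusted p = 0.0372 and 0.0376 in limma's test). *Gss* peaked at CT10.3 in WT and CT12 in ΔRRE, and *Glrx5* at CT12.9 and CT15.4. *Txnrd2*, the mitochondrial thioredoxin reductase, was the 1 gene of 13 in the thioredoxin and peroxiredoxin system to pass, with a peak at CT5.4 in WT and CT5.1 in ΔRRE (adjusted p = 0.0295 in limma's test). Of *Sod3*, *Ccs* and *Sod1*, 0 passed, with adjusted p of 0.222, 0.367 and 0.695 in limma's test.

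The level of 0 of the 65 pathway genes differed between the genotypes at an adjusted p under 0.05, and at an unadjusted p under 0.05, 6 were higher and 4 lower in ΔRRE, where 7.16% and 1.75% of all genes were. After rescaling 3 were higher and 5 lower, where 3.89% and 3.16% of all genes were. *Cyp2a5* had the smallest p, at 481 FPKM in WT against 287 FPKM in ΔRRE and a log2 difference of -0.68 ± 0.16 (SE), which did not pass (adjusted p = 0.332 in limma's test). *Ces1g*, a carboxylesterase, and *Gstm2* followed in the target list, with log2 differences of -0.38 and 0.44. *Mafk* had the smallest p of the regulators, at 4.69 FPKM in WT against 5.75 FPKM in ΔRRE and a log2 difference of 0.33 ± 0.12 (SE, adjusted p = 0.438 in limma's test), and *Sqstm1* and *Dpp3* had 0.11 and 0.09. In NADPH supply *G6pdx*, *Tkt* and *Me1* had log2 differences of -0.49, -0.18 and -0.32. In the thioredoxin and peroxiredoxin system *Prdx4*, *Prdx3* and *Txnrd2* had 0.2, 0.11 and 0.14. *Glrx3*, *Gss* and *Glrx5* of the glutathione list had 0.05, -0.08 and -0.05, and *Ccs*, *Sod1* and *Sod3* had 0.1, 0.01 and 0.03, also on the log2 scale.

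For each of the 10 genes, the most similar profiles over the 24 libraries were sought among all genes tested. Pearson's r across libraries is a description here, since the points share their libraries and time points. The closest were found for *Gclc*, with *Mapk15* (r = 0.924), *Spon2* (0.878) and *Sgpl1* (0.873). *Gsr* was most like *Psmc6* (0.879), *Gstm4* (0.855) and *Igsf11* (0.843), *Cat* most like *Car3* (0.865) and *Sucnr1* (0.841), and *Srxn1* most like *C1rl* (0.861), *Mta3* (0.842) and *Acot9* (0.833). Genes without a called wave had less similar neighbours, such as *Pdk1*, *Gm35986* and *Fastkd5* for *Sod2* (0.779 to 0.749) and *Pdlim5*, *Pde8a* and *Usp47* for *Txnrd1* (0.79 to 0.775). *Keap1* was most like *Heatr5a*, *Ubqln1* and *Kpnb1* (0.77 to 0.761), *Nqo1* like *Abcd2*, *Ramac* and *Slco1a4* (0.777 to 0.741), *Gclm* like *Gm2814* and *Gla* (0.752 and 0.747), and *Nfe2l2* like *Gm49012*, *Zranb2* and *Zfp740* (0.733 to 0.698). Among the 10 genes themselves the highest r was that of *Gclc* and *Cat* (0.773), followed by *Srxn1* and *Gsr* (0.712) and *Gclc* and *Gsr* (0.704).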

How the data were processed

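The authors deposited FPKM per gene for each library separately. Per the labels they trimmed reads with Trimmomatic 0.39, aligned them with HISAT2 2.1.0 to mm10 and used StringTie 1.3.5. No read counts were used, so FPKM were analysed as log2(FPKM + 0.1) without rescaling, for genes that averaged 1 FPKM or more. Models were fitted over all 11244 genes with limma 3.58.1 (R 4.3.3, intensity-dependent prior) and p-values adjusted by Benjamini-Hochberg: level with time point as a factor, and rhythm as a cosine and a sine of 24 h per genotype. BIO_CYCLE was not run. The study's criteria were a p under 0.3, time-point means that spanned over 1.5 times from lowest to highest, and a largest SD within 1.5 times that span. Exact permutation tests used all 23328 divisions. The labels do not say that replicates are separate animals, so p-values measure the spread between these libraries. Libraries were grouped by their labels, and no pair shared over 0.038% of its values. The table of the whole series was not used. Genes were named by a rule: the 10 genes, from each pathway list the called genes or otherwise the 3 with the smallest p in the tests of rhythm and of level, and the 3 most similar genes each, of which 2 in all are not reported here. The genes and lists were chosen with earlier results of these data known. Coordinates are those of GENCODE M21 (GRCm38). The steps were tested on simulated data. Python 3.11.15 and matplotlib 3.10.9 were used. Alternatives were the constant before the logarithm, the filter, rescaling by the median of ratios, the prior, a replicate block, the time point as a factor, a shared spread and leaving out each library. Leaving out each time point, or both ΔRRE CT10 replicate 1 and CT14 replicate 1, was chosen after seeing the data.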

Additional observations from a re-analysis of the deposited data

How the results depend on the processing

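The count of genes with a level difference or a difference in rhythm remained 0 of 10 under every alternative run for it. The lowest adjusted p of a level difference was 0.552 (*Srxn1*, limma), and the sign of the difference changed for *Nqo1*, *Gclc*, *Txnrd1*, *Gsr* and *Sod2* in 15, 10, 4, 15 and 1 of the fits, the causes of which were not tested. Rescaling by the median of ratios moved the median log2 difference of all genes from 0.04 to 0.00. Where 4 genes had a rhythm over both genotypes, 1 (*Gclm*) passed with the time point as a factor (9.67% of all genes), 2 without CT2, CT6 or CT22, 0 without CT14, and 2 without both ΔRRE CT10 replicate 1 and ΔRRE CT14 replicate 1. When 1 library was left out, *Gclc* and *Srxn1* passed in 24 of 24 fits, *Gsr* in 23 and *Cat* in 5 (leaving out replicate 1 of WT CT6, WT CT10 or ΔRRE CT18, or replicate 2 of WT CT18 or ΔRRE CT14). *Gclm* passed without WT CT14 replicate 1 (adjusted p = 0.0336 in limma's test) or ΔRRE CT6 replicate 2 (0.0427), and *Sod2* after rescaling (0.0394). *Cat* was lost after rescaling (adjusted p = 0.136 in limma's test), without a filter (0.132) and with a prior without trend (0.0542). In WT, where 1 gene passed, 0 passed without a filter, with a prior without trend, with the replicate block or with the time point as a factor, 3 passed in 1 fit with a shared spread, 5 by the study's criteria, and between 0 and 2 without 1 library. The count was 0 without WT CT2 replicate 1 or 2, CT6 replicate 1, CT10 replicate 2, CT14 replicate 2, CT18 replicate 1, or CT22 replicate 1 or 2. In ΔRRE, where 1 gene passed, 0 passed without a filter, 0 without both of these ΔRRE libraries, 2 with the time point as a factor, 4 by the study's criteria, and between 0 and 1 without 1 library. Same-numbered libraries of the genotypes were not paired: their deviations had an r from -0.119 to 0.206 over the time points, and the replicate block changed no other count. *Nqo1* was not tested under a filter of at least 5 FPKM. With 2 libraries per genotype and time, changes within the 95% intervals remain possible. The intervals are not adjusted over all genes, so that a larger change could also miss the call. *Cyp2a5* is an example, with a log2 difference of -0.68 ± 0.16 (SE) and an adjusted p of 0.332 in limma's test. Counting error is unknown for FPKM.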

Other observations

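The pairs of replicate libraries differed from each other in several genes of the pathway at once. After the mean of each genotype and time point was removed, *Nfe2l2* and *Gclm* had a Pearson's r of 0.901 over 24 libraries in 12 pairs, and 2 of the 11243 other genes tested, *Gclm* included, were as close to *Nfe2l2* or closer. The r with *Nfe2l2* was 0.735 for *Gclc* and 0.726 for *Gsr*, which took ranks 53 and 66. For *Srxn1* it was 0.05, for *Txnrd1* 0.221 and for *Nqo1* 0.292. The WT pair of CT10 carried much of this: replicate 1 had 28.0 FPKM of *Nfe2l2*, 47.0 of *Gclm* and 113 of *Gclc*, where replicate 2 had 17.3, 15.8 and 46.2 FPKM. Without that pair the r with *Nfe2l2* was 0.813 for *Gclm*, 0.498 for *Gclc* and 0.515 for *Gsr*. It was then -0.283 for *Srxn1*, -0.034 for *Txnrd1*, 0.311 for *Nqo1*, 0.132 for *Keap1*, 0.276 for *Cat* and 0.016 for *Sod2*. *Gclm* and *Gsr* each differed in the same direction as *Nfe2l2* in 9 of the 12 pairs, and *Gclc*, *Txnrd1* and *Keap1* each in 8. *Nqo1* did so in 7, *Srxn1* and *Cat* each in 6, and *Sod2* in 5. These values were examined after the data had been seen, the libraries of a pair share their scaling across genes, and no test was made.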
